A study of Homo sapiens with 74 samples.

Results

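Messenger RNA of 9 genes for progenitor surface markers and cytokine receptors was followed in human erythroleukaemia cells that had lost DOT1L, the enzyme that methylates lysine 79 of histone H3, or ENL, an acetyl-lysine reader that binds DOT1L and is encoded by MLLT1. The genes were chosen by name, without a threshold, but with earlier results of these data known. They were CD34, KIT, CD33, CD24, CD38, PROM1, FLT3, CD36 and EPOR, 9 of the 28131 genes listed in each count table. Counts and medians of these members beside those of all genes are therefore description only. The data were RNA-seq counts of K562, an erythroleukaemia line that arose from chronic myeloid leukaemia, and of HEL, a separate erythroleukaemia line. K562 was either wild type (control), DOT1L-/- (DOT1L KO) or ENL-/- (ENL KO), and HEL was either an unspecified control or carried a DOT1L knockdown (DOT1L KD). HEL was grown in RPMI-1640 and K562 in DMEM. The labels do not say how DOT1L or ENL was depleted, whether a knockout line was 1 clone, or whether replicates came from separate cultures, so the p-values below measure only the spread between these libraries, which may be technical. The series as a whole studied the part of the DOT1L complex in transcriptional regulation, and 61 of its 74 samples, which hold other assays, were not analysed here.

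Haematopoietic stem and progenitor cells are recognised by the surface proteins they carry, and these change in a set order as cells commit to a lineage. CD34 and PROM1 (CD133) mark immature cells, KIT and FLT3 are related receptor tyrosine kinases for stem cell factor and FLT3 ligand, and the erythropoietin receptor EPOR takes over the survival signal as erythroid cells mature. CD33 is a sialic acid-binding lectin of myeloid cells, CD24 a small glycosylphosphatidylinositol-anchored glycoprotein, CD38 an ectoenzyme that consumes NAD, and CD36 a scavenger receptor for fatty acids and thrombospondin found on erythroid, megakaryocytic and monocytic cells.

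K562 control columns 2 and 3 were identical and were counted as 1 library. The fits thus held 2 control libraries, 3 of the DOT1L KO and 3 of the ENL KO for K562, and 2 control libraries and 2 of the DOT1L KD for HEL. Total counts ran from 15404944 to 29236703 fragments in K562 and from 12151495 to 12811688 reads in HEL. The labels name a sequencing lane for the K562 control and DOT1L KO libraries and none for the ENL KO libraries, so a batch difference and the loss of ENL cannot be told apart. The targeted gene kept transcripts in each depleted group: DOT1L was at 263 ± 9.84 CPM (SD, n = 2; CPM are counts scaled by library total and TMM factor) in K562 controls and 182 ± 5.15 (n = 3) in the DOT1L KO, MLLT1 was at 216 ± 3.56 in K562 controls and 154 ± 1.92 in the ENL KO, and DOT1L was at 92.4 ± 7.12 in HEL controls and 29.6 ± 0.641 in the KD. Erythroid markers were present in both lines, with 10 of 10 at a mean of at least 1 CPM in K562 controls and 9 of 10 in HEL controls.

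K562 and HEL expressed different members of the group. In TPM, a unit that corrects for exonic length and library total and so allows genes to be compared, the order in K562 controls was CD24 at 43.0 ± 3.52, EPOR at 37.9 ± 0.893, CD33 at 27.1 ± 0.243, KIT at 7.87 ± 0.376 and CD36 at 0.785 ± 0.00433 (SD, n = 2), and no neighbours in that order overlapped between libraries. In HEL controls KIT led at 223 ± 2.35 TPM, ahead of CD36 at 172 ± 2.74, CD33 at 110 ± 2.1, EPOR at 25.5 ± 3.76, CD24 at 13.8 ± 1.08 and CD34 at 10.3 ± 0.0103, again without overlap between neighbours. The ratio of HEL to K562 control TPM was 218 for CD36, 28.4 for KIT and 4.05 for CD33, while EPOR and CD24 stood the other way at 0.672 and 0.321. These ratios compare tables that were counted separately, HEL by reads and K562 by fragments, and are given as levels with no test.

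CD34 divided the lines. HEL held 143 and 146 counts of CD34 in its controls and 149 and 152 in the KD, whereas K562 held 0 in both controls, 2, 0 and 4 in the DOT1L KO and 0 in each ENL KO library. A count of 0 allows a level of up to 3 counts, which served as the floor in each library. Against that floor HEL control TPM of CD34 was at least 79.4-fold higher than that of K562 control. The floor was worth 0.101 to 0.195 CPM in K562 and 0.238 to 0.244 CPM in HEL, and it covers counting error only, since PCR copies carried no molecular identifiers.

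PROM1, FLT3 and CD38 were at or near that floor throughout. PROM1 never exceeded 1 count in a library. FLT3 had 0 counts in all 8 K562 libraries, 5 and 0 in the HEL controls and 1 and 2 in the HEL KD. CD38 ranged from 0 to 6 counts, with its highest count in the third DOT1L KO library of K562 and 0 in both HEL controls. None of these 3 genes passed the filter on low counts in either line, and no change in them was detectable at this depth. CD34 did not pass it in K562, so 5 members were tested there and 6 in HEL.

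**Figure D1:**
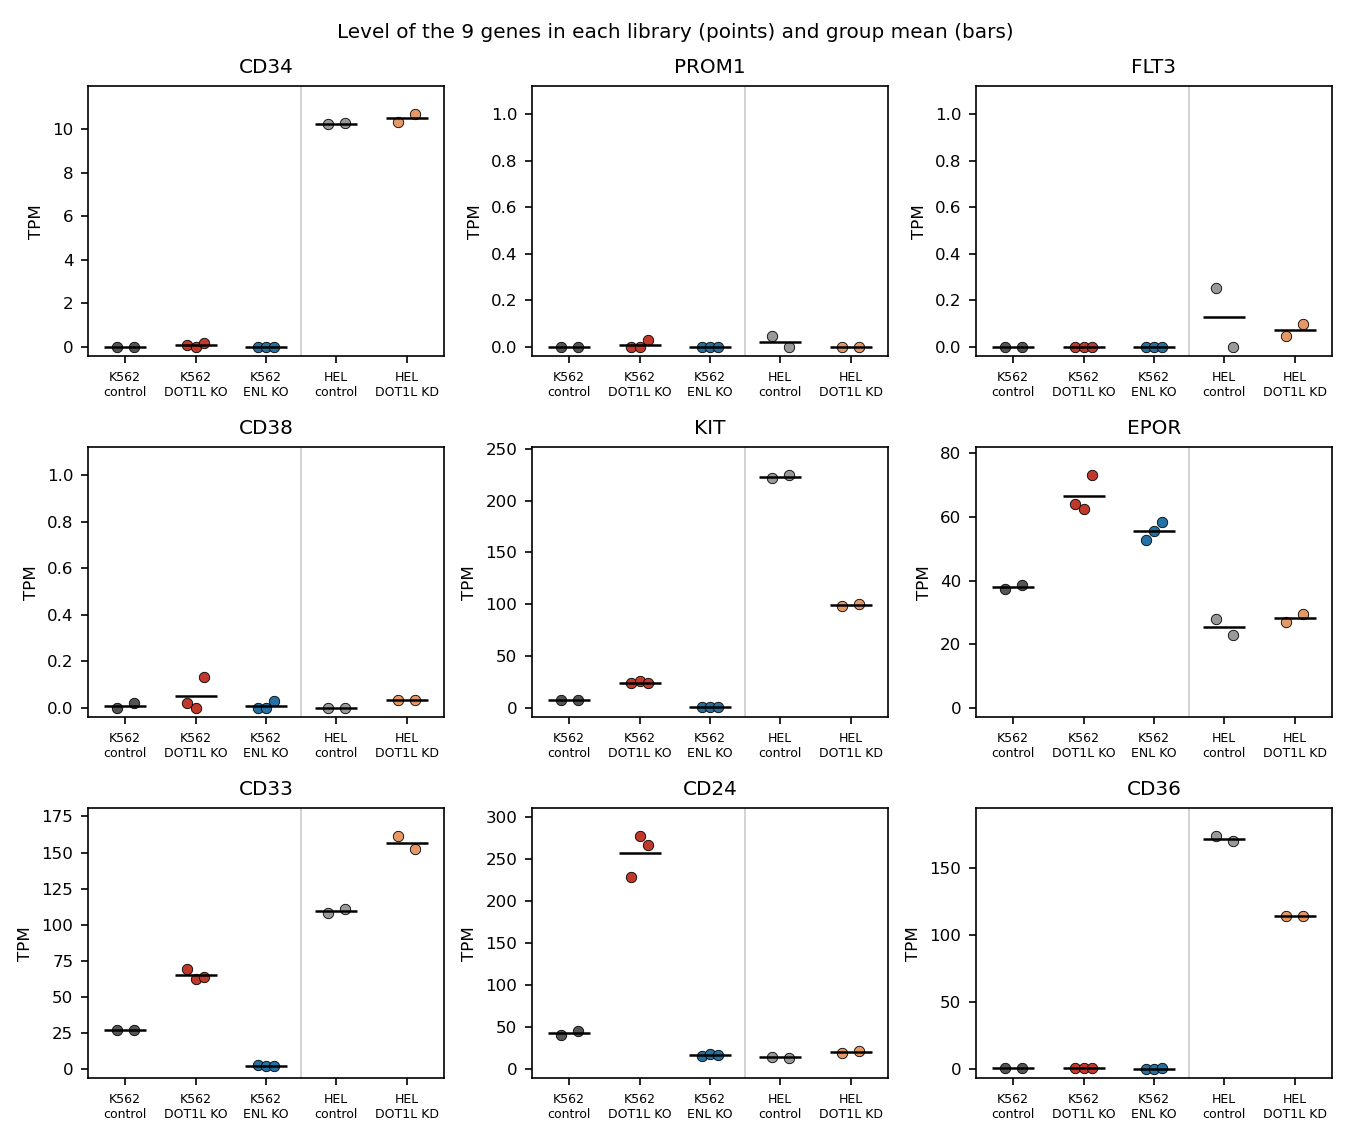
Level of each member in every library, in TPM on a linear axis (each panel has its own range, of at least 1 TPM), for the 5 groups of K562 and HEL; points are libraries and bars are group means. CD34 was detected at about 10.3 TPM in HEL controls and lay at or near 0 in K562, PROM1, FLT3 and CD38 stayed under 1 TPM everywhere, and KIT, CD33 and CD24 of K562 lay above the controls in the DOT1L KO and below them in the ENL KO.

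The 4 members whose K562 levels carry the results below have unlike promoters. All 9 members had an entry in the RefSeq promoter table of GRCh38.p14, with 250 bases before and 50 bases after the annotated start. Shown here are 180 bases before to 30 bases after the start of KIT (chr4:54657777-54657986, plus strand), CD33 (chr19:51224900-51225109, plus strand), CD24 (chr6:106975598-106975807, minus strand, its first listed start) and EPOR (chr19:11384285-11384494, minus strand), because KIT, CD33 and CD24 moved together in K562 and EPOR did not. Each runs 5′ to 3′ on the gene's own strand. Capitals mark exact matches on either strand. The motifs were the TATA box, spelled TATAAA, the site of GATA factors, spelled AGATAA, and the CACCC box, which is spelled as named. The GC box was spelled GGGCGG, the site of ETS factors CAGGAAG and the site of RUNX factors TGTGGT. E-boxes, spelled CANNTG, were searched as well and are not marked. No marked match overlapped another in these stretches.

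KIT: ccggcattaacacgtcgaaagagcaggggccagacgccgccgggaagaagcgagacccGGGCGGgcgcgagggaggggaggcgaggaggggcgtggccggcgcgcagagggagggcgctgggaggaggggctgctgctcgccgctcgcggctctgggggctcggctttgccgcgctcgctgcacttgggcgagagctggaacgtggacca
CD33: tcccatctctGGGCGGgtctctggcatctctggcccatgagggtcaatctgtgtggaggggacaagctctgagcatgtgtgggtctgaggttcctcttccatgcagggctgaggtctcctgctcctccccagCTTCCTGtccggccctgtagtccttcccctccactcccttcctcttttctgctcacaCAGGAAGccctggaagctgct
CD24: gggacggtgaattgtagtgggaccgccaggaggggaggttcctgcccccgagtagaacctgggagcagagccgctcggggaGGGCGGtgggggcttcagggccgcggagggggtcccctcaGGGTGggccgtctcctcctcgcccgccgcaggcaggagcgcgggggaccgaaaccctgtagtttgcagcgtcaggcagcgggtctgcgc
EPOR: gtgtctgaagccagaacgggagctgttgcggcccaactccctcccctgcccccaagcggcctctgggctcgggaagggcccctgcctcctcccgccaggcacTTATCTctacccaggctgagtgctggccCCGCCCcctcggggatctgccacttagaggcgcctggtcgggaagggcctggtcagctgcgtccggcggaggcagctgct

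KIT had 38 CpG dinucleotides in its 300 bases (90.1st percentile of 35116 promoters) and a GC content of 74.3%, and CD33 had 3 CpG (18.2nd percentile) and 59.0% GC. CD24 had 25 CpG and EPOR 13, where the median promoter had 14. The GC box, which 45.0% of all promoters held, occurred in each of the 4, at position -122 in KIT, -170 in CD33, -99 in CD24 and -50 in EPOR, counted from the annotated start. Of these stretches CD33 alone held the ETS letters (12.7% of all promoters), at -48 on the reverse strand and at 10, and EPOR alone held the GATA letters (10.3%), at -78 on the reverse strand. CD24 held a CACCC box (59.9%) at -59 on the reverse strand. None of the 4 stretches held the TATA or RUNX letters, found in 11.5% and 13.1% of all promoters. E-box letters were in the 300 bases of KIT, CD33 and EPOR but not of the first listed start of CD24, and in 68.7% of all promoters. The third listed start of CD24 held them at -249. These matches describe letters in a window and say nothing of binding.

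**Figure D2:**
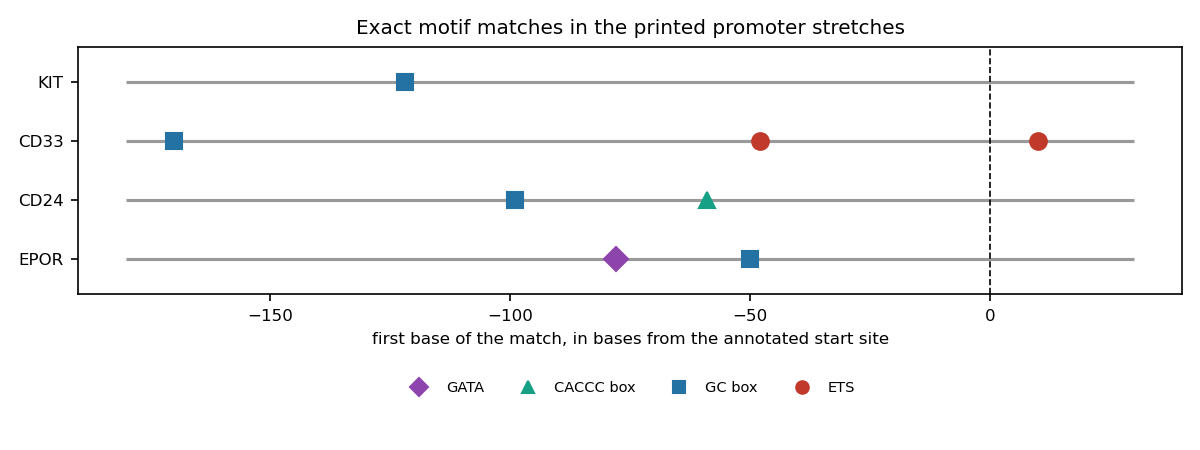
Positions of the motif matches in the printed promoter stretches of KIT, CD33, CD24 and EPOR, in bases from the annotated start site (dashed line); each symbol is the first base of 1 match on either strand. A GC box occurred in all 4, the GATA letters in EPOR only and the ETS letters in CD33 only.

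Loss of DOT1L in K562 went with higher transcript levels of both tested receptors and of CD33 and CD24. CD24 rose 5.91-fold, KIT 3.08-fold, CD33 2.38-fold and EPOR 1.73-fold, and CD36 was not past the threshold. By the quasi-likelihood test of edgeR, adjusted over all genes by Benjamini and Hochberg's method, 4 of the 5 tested members were higher and 0 lower, where 51.1% of the 14301 genes tested were called, 26.9% of them as higher and 24.2% as lower. Large changes ran mostly upward over all genes: of 2265 called genes with a log2 change of at least 1 in size, 1680 were higher and 585 lower. The median log2 fold change was 1.25 over the 5 tested members and 0.01 over all genes. In bulk RNA, a change in the share of cells with a transcript and a change in its amount per cell cannot be told apart.

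KIT, the receptor for stem cell factor, stood at 15.4 and 16.4 CPM in control libraries and at 48.3, 51.8 and 47.0 CPM after DOT1L knockout (331 and 347 against 1064, 1532 and 992 counts). Every knockout library was well above both controls and the groups did not overlap. This is a log2 difference of 1.63 ± 0.105 (SE) with an adjusted p of 2.55e-08.

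EPOR, the receptor for erythropoietin, measured 39.2 and 40.4 CPM in control libraries and 67.9, 65.4 and 74.2 CPM after DOT1L knockout. Here too the lowest knockout library exceeded the highest control. Its log2 fold change was 0.79 ± 0.0714 (SE, adjusted p = 7.29e-07).

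CD33 rose from 17.2 and 16.9 CPM to 44.0, 39.2 and 38.6 CPM, without overlap (log2 1.25 ± 0.0967 SE, adjusted p = 1.59e-07). CD24, an adhesion glycoprotein that binds P-selectin, rose from 50.1 and 56.1 CPM to 284, 340 and 317 CPM (log2 2.56 ± 0.0861 SE, adjusted p = 7.53e-11). Its rank by TPM among genes with a count moved from the 74.5th to the 96.4th percentile, and 667 of the 14301 genes tested had a fold change at least as high. CD24 has near-identical pseudogene copies elsewhere in the genome, and how shared reads were counted is not given in the sources used here, so its level is uncertain.

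CD36 had few counts in K562. It measured 1.67 and 1.66 CPM in control libraries and 1.36, 0.845 and 1.37 CPM after DOT1L knockout, which is 36 and 35 against 30, 25 and 29 counts. Although the knockout libraries all lay lower, its log2 fold change of -0.51 ± 0.393 (SE) did not pass the test (adjusted p = 0.302). Non-overlap alone was common, since 68.1% of all genes tested had it in this comparison.

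After DOT1L loss the TPM order in K562 was CD24 at 257 ± 25.5, EPOR at 66.7 ± 5.78, CD33 at 65.3 ± 3.73 and KIT at 24.5 ± 1.05 (SD, n = 3). EPOR and CD33 overlapped between libraries, whereas in the controls EPOR had been clearly above CD33. Markers of other lineages changed as well, and not all in the same direction. The summed level of 10 monocytic and granulocytic markers ranged over control libraries from 38.5 to 41.0 CPM and over DOT1L KO libraries from 310 to 341 CPM, most of it LYZ (lysozyme, 34.0 against 310 CPM), with MPO, ELANE and PRTN3 at or under the floor in the knockout. Of the 4 tested genes of that list 3 were higher and 0 lower, and CD14 did not pass (log2 -0.52). MPO, not tested, went from 11 and 10 counts in the controls to 3, 1 and 1 in the knockout. ELANE and PRTN3 were at or under the floor in the controls too. The summed level of 10 erythroid markers was 6841 to 7384 CPM in the controls and 10825 to 11405 CPM in the knockout, with 9 of 10 higher. The 8 megakaryocytic markers summed to 3.91 to 5.86 CPM in the controls and 24.9 to 25.7 CPM in the knockout, nearly all of it ITGA2B (CD41, 4.86 against 24.9 CPM), with 6 of the 8, PF4 and GP9 among them, at or under the floor in the knockout. The 8 lymphoid markers summed to 54.2 to 55.7 CPM in the controls and 18.1 to 22.4 CPM in the knockout, most of it CD3D (51.9 against 17.4 CPM), with MS4A1, NKG7 and CD2 at or under the floor. The part of these lineages' markers in the rise of CD33, CD24, KIT and EPOR was not tested.

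Loss of ENL in K562 went with the opposite change in 3 of the 4 genes that DOT1L loss raised. Over all genes, 3846 were called higher in the DOT1L KO. How many of those fell in the ENL KO was not counted, so this opposition is not shown to be particular to the members. CD33 fell 11.7-fold, KIT 9.58-fold and CD24 2.55-fold, CD36 fell as well, and EPOR rose 1.49-fold. Of the 5 tested members 4 were lower and 1 higher (edgeR's quasi-likelihood test, Benjamini-Hochberg adjustment), where 41.0% of the 14301 genes were called, 22.2% as lower and 18.8% as higher. Large changes ran mostly downward over all genes: of 1573 called genes with a log2 change of at least 1 in size, 1160 were lower and 413 higher. The median log2 fold change was -2.28 over the 5 tested members and 0.00 over all genes. For all 5 the libraries of the groups did not overlap, as for 59.6% of genes. Both knockouts were compared with the same 2 control libraries, so the values of the comparisons are not independent and are set side by side only.

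CD33 was at 1.74, 1.22 and 1.37 CPM in the ENL KO (36, 25 and 21 counts) against 17.2 and 16.9 CPM in the controls. The highest ENL KO library lay far below either control. The log2 fold change was -3.55 ± 0.141 (SE, adjusted p = 4.43e-10), the 190th lowest of the 14301 genes.

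KIT was at 1.98, 1.75 and 1.11 CPM in the ENL KO (41, 36 and 17 counts), again without overlap with the controls. Its log2 fold change was -3.26 ± 0.149 (SE, adjusted p = 1.64e-09), the 245th lowest. In TPM, KIT went from 7.87 ± 0.376 in the controls to 0.779 ± 0.202 (SD, n = 3), the level that CD36 had in the controls.

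CD24 was at 19.9, 22.0 and 20.7 CPM in the ENL KO and all these libraries were below both controls. The log2 fold change was -1.35 ± 0.0884 (SE, adjusted p = 5.49e-08). For CD36, counts of 1, 6 and 12 in the ENL KO libraries gave 0.0483, 0.292 and 0.782 CPM against 1.67 and 1.66 in the controls. The log2 fold change of CD36 was -2.28 ± 0.511 (SE, adjusted p = 0.00293) and rests on these few counts: without the third ENL KO library it was -3.25, and it stayed past the threshold when any library was left out.

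EPOR was the member that rose in both knockouts. It stood at 57.7, 59.9 and 61.0 CPM in the ENL KO against 39.2 and 40.4 in the controls (log2 0.58 ± 0.0719 SE, adjusted p = 2.44e-05). At 55.6 ± 2.90 TPM (SD, n = 3) EPOR was the most abundant member in the ENL KO, ahead of CD24 at 16.6 ± 1.01. Beside these values, monocytic and granulocytic markers summed to 20.1 to 21.2 CPM in the ENL KO, with 3 of the 4 tested genes lower, 6 of 10 at or under the floor and LYZ at 19.8 CPM. Erythroid markers summed to 8994 to 9227 CPM, with 7 of 10 higher and 1 lower, megakaryocytic markers to 10.9 to 14.5 CPM (PF4 and GP9 at or under the floor) and lymphoid markers to 62.2 to 73.2 CPM (CD3D at 66.0 CPM). Their part in the changes was not tested.

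**Figure D3:**
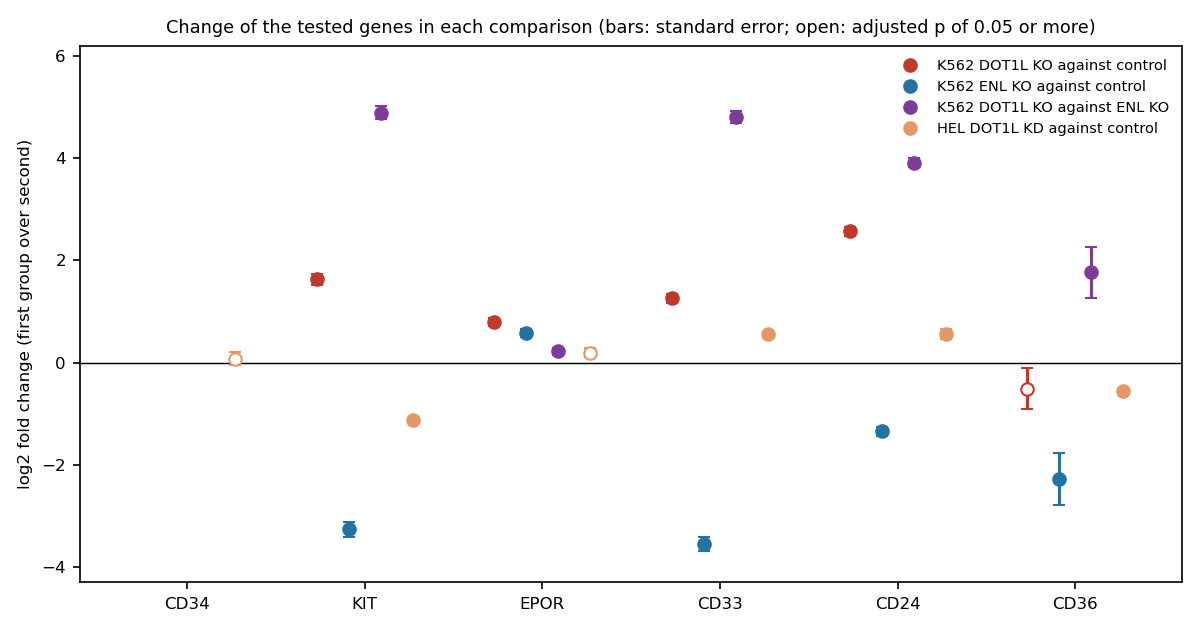
Log2 fold change of each tested member in the 4 comparisons, with the standard error as bars; filled points passed the threshold and open points did not. In K562, KIT, CD33 and CD24 lay above 0 in the DOT1L KO and below 0 in the ENL KO, while EPOR lay above 0 in both; in HEL, KIT fell by 1.13 and CD33 and CD24 rose by 0.56 and 0.57.

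The knockouts were also compared with each other directly, a contrast that uses no control library. All 5 tested members were higher in the DOT1L KO than in the ENL KO, where 60.2% of the 14301 genes were called, 31.8% as higher and 28.3% as lower. Of the 2744 called genes with a log2 difference of at least 1 in size, 2198 were higher (80.1%) and 546 lower. No library of 1 group overlapped the other for these 5, as for 63.3% of all genes. The median log2 difference was 3.91 over these 5 and 0.00 over all genes. KIT differed 29.5-fold (log2 4.88 ± 0.128 SE, adjusted p = 2.48e-12), CD33 27.9-fold (log2 4.80 ± 0.123, adjusted p = 2.14e-12) and CD24 15.0-fold (log2 3.91 ± 0.0813, adjusted p = 5.89e-13) by edgeR's quasi-likelihood test. EPOR differed far less, by log2 0.22 ± 0.0617 (SE, adjusted p = 0.00810), with DOT1L KO libraries at 65.4 CPM or more and ENL KO libraries at 61.0 CPM or less. CD36 differed by log2 1.77 ± 0.497 (SE, adjusted p = 0.00738), and by 2.74 without the third ENL KO library.

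**Figure D4:**
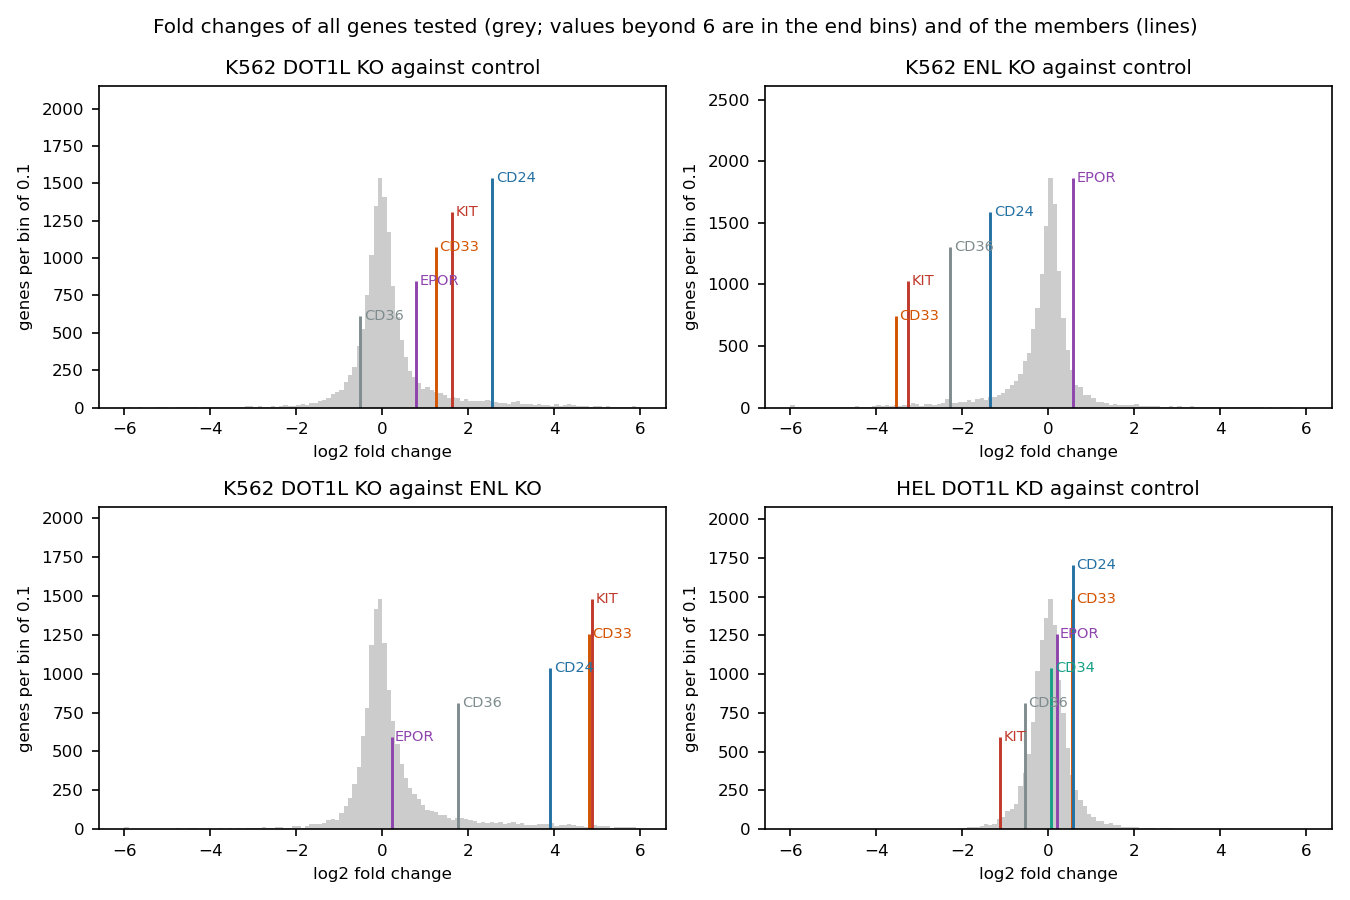
Distribution of log2 fold changes over all genes tested in each comparison (grey, genes per bin of 0.1) with the tested members as vertical lines, whose heights carry no value. KIT and CD33 were the 245th and the 190th lowest of 14301 genes in the ENL KO, CD24 the 667th highest in the DOT1L KO and KIT the 219th lowest of 12635 genes in the HEL KD.

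In HEL, DOT1L knockdown went with less KIT and CD36 and more CD33 and CD24. KIT fell 2.19-fold and CD36 1.46-fold, and CD33 and CD24 rose 1.47-fold and 1.48-fold. Of the 6 tested members 2 were higher and 2 lower, and CD34 and EPOR did not pass (edgeR's quasi-likelihood test, Benjamini-Hochberg adjustment). Across the 12635 genes tested 55.0% were called, 27.0% as higher and 28.0% as lower, so the members' count is near the background. Upper-quartile scaling moved the share of higher calls from 49.1% to 61.4% over all genes and left the directions of these 6 members as they were. The median log2 fold change of the 6 was 0.13, beside 0.01 over all genes.

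KIT, the most abundant member in the HEL controls, was at 454 and 466 CPM there and at 208 and 213 CPM in the KD. The KD libraries held less than either control by a margin far above the spread within a group. The log2 fold change was -1.13 ± 0.0330 (SE, adjusted p = 1.12e-33), the 219th lowest of 12635 genes. CD36 went from 373 and 369 CPM to 253 and 255 CPM (log2 -0.55 ± 0.0324 SE, adjusted p = 1.16e-20).

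CD33 rose from 68.9 and 71.7 CPM to 106 and 101 CPM, without overlap (log2 fold change 0.56 ± 0.0498 SE, adjusted p = 5.40e-14). CD24 rose from 18.2 and 16.5 CPM to 24.1 and 27.3 CPM (0.57 ± 0.0976 SE, adjusted p = 2.21e-06). By TPM these shifts changed the order of the most abundant members: CD33 at 157 ± 6.55 came ahead of CD36 at 114 ± 0.174 and KIT at 99.2 ± 1.15 (SD, n = 2).

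CD34, which marks immature progenitors, was at 11.4 and 11.6 CPM in the HEL controls and 11.8 and 12.4 CPM in the KD. The log2 fold change was 0.07 ± 0.126 (SE, adjusted p = 0.647). EPOR was at 30.0 and 24.6 CPM in the controls and 29.7 and 32.5 CPM in the KD, and the groups overlapped. Its log2 fold change of 0.19 ± 0.0866 (SE) had an adjusted p of 0.0577. The call depends on the library: without the first HEL control the value was 0.33 (adjusted p = 0.00374), and without the first KD library 0.25 (adjusted p = 0.0301). Over the 6 tested members 5 did not overlap between the groups, as did 75.9% of all genes. Beside these values, erythroid markers summed to 6549 to 6671 CPM in the HEL controls and 9048 to 9720 CPM in the KD, megakaryocytic markers to 1693 to 1752 and 1625 to 1643 CPM, and monocytic and granulocytic markers to 52.1 to 56.3 and 58.7 to 61.2 CPM, with CD14 and MPO at or under the floor. Their part in the changes was not tested.

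The response to DOT1L loss differed between the lines for 4 of the 6 members tested in a joint fit, where 38.9% of 15367 genes differed. The test was the interaction of line and depletion, and the line cannot be told apart from the kind of depletion (knockdown or knockout) or the unit counted (reads or fragments). The joint fit gave each gene 1 spread for both lines. In the separate fits the common spread between replicates (edgeR's biological coefficient of variation) was 6.34% in K562 and 1.83% in HEL. The errors below may therefore be too small: that of KIT is under the 0.105 of its K562 response alone. KIT differed most: it rose in K562 and fell in HEL, and the HEL response was lower by log2 -2.74 ± 0.0870 (SE, adjusted p = 1.04e-15). CD24 rose in both lines, and its HEL response differed by -1.98 ± 0.140 (SE, adjusted p = 3.47e-10). CD33, also higher in both, differed by -0.68 ± 0.105 (SE, adjusted p = 2.46e-05). For EPOR the difference was -0.59 ± 0.127 (SE, adjusted p = 0.000878). The CD36 responses were -0.51 in K562 and -0.55 in HEL, with a difference of -0.01 ± 0.319 (SE, adjusted p = 1.00), an error wide enough to leave their likeness unsettled. For CD34, with K562 at or near its floor, the fitted size is not readable; the difference did not pass (adjusted p = 0.102), but passed without the second DOT1L KO library (adjusted p = 0.0237).

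Of the ligands for these receptors, KITLG and EPO transcripts were scarce and FLT3LG was measured. KITLG, the gene of stem cell factor, had 0 to 3 counts in the K562 libraries and 0 in each HEL library. EPO had 0 to 4 counts in K562 and 0 in HEL. FLT3LG was at 3.83 to 5.71 CPM in K562 and 4.53 to 5.37 CPM in HEL (7.96 to 12.5 and 9.30 to 11.0 TPM), while FLT3 itself was at or near the floor. FLT3LG did not pass the test against control in the DOT1L KO (log2 0.31, adjusted p = 0.102), the ENL KO (-0.09, adjusted p = 0.681) or the HEL KD (-0.02, adjusted p = 0.938). In the DOT1L KO it passed without the first control (0.52, adjusted p = 0.0442) and was at 0.13 without the second (adjusted p = 0.602). FLT3LG was higher in the DOT1L KO than in the ENL KO (0.41 ± 0.138 SE, adjusted p = 0.0214), a call lost with the DESeq2 test (adjusted p = 0.0501) and without the first ENL KO library (0.0744), the second DOT1L KO library (0.0658) or the third (0.0515).

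Related genes were counted in 5 lists, which were also chosen with earlier results of these data known. The genes named are the largest increase and decrease of each list that met the expression and non-overlap rule. The shares of all genes to read them against were 26.9% higher and 24.2% lower for the DOT1L KO, 18.8% higher and 22.2% lower for the ENL KO, 31.8% and 28.3% between the knockouts, and 27.0% and 28.0% in HEL, and the median over all genes lay near 0 in each. Of 16 other haematopoietic cytokine receptors tested in K562, 8 rose and 3 fell in the DOT1L KO (median log2 0.33) and 3 rose and 5 fell in the ENL KO (median -0.36), the ENL KO counts near the share of all genes. IL6ST, the shared chain of the interleukin 6 receptor family, rose in both (1.08 and 0.61), IFNGR2, a chain of the interferon gamma receptor, fell in the DOT1L KO (-0.90), and LIFR, the leukaemia inhibitory factor receptor, fell in the ENL KO (-2.28). Directly compared, 11 of the 16 stood higher in the DOT1L KO and 3 stood lower, with LIFR at 1.72 and IL2RG, the common gamma chain, at -0.20. The IL2RG call was lost with library-size scaling (adjusted p = 0.0789), which left 1 receptor lower, and without the first DOT1L KO library (0.0586), the second ENL KO library (0.0601) or the third (0.0648). In HEL 3 of 13 rose and 5 fell (median -0.23), near the share of all genes, among them IL13RA1 (0.45) and IL21R (-1.55).

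Another of these lists mixes genes that carry the EPOR and KIT signal inside the cell with genes that restrain it. Its counts therefore give no direction of signalling. In each comparison with a control, more of its genes fell than rose, under each scaling tried. At the narrowest, 10 fell and 7 rose in the DOT1L KO with library-size scaling. Of 25 tested, 14 fell and 6 rose in the DOT1L KO (median -0.17), 9 fell and 3 rose in the ENL KO (median -0.06), and 16 fell and 2 rose in the HEL KD (median -0.21). STAT5A, a transcription factor that both receptors activate, went from 873 ± 13.5 CPM (SD, n = 2) to 353 ± 6.19 (n = 3) in the DOT1L KO (log2 -1.31 ± 0.0489 SE, adjusted p = 1.82e-10). INPP5D, a phosphatase that restrains this signal, rose from 1.41 ± 0.0832 to 14.3 ± 1.02 CPM (3.34). In the ENL KO the kinase FYN rose (1.32) and the inhibitor SOCS1 fell (-1.59). In the HEL KD the adaptor SH2B3 rose (0.59), and PIM1, a kinase gene induced by STAT5, fell from 1822 ± 1.43 to 860 ± 6.57 CPM (-1.08 ± 0.0271 SE, adjusted p = 1.73e-36). Directly compared, 9 of the 25 were higher in the DOT1L KO than in the ENL KO and 11 lower (median -0.09), with INPP5D at 4.56 and SH2B3 at -0.88.

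Among other stem and progenitor surface antigens, 11 of 20 tested rose and 1 fell in the DOT1L KO (median log2 1.17), 8 rose and 6 fell in the ENL KO (median 0.16), and 8 of 24 rose and 7 fell in HEL (median 0.05). The HEL counts are near the share of all genes (27.0% and 28.0%), and in the ENL KO 6 rose and 6 fell under library-size or upper-quartile scaling. CD44, the hyaluronan receptor, rose in the DOT1L KO (2.22) and IL1RAP, a co-receptor for interleukin 1, fell (-1.41). PTPRC (CD45) rose (0.85) and PROCR, the endothelial protein C receptor, fell (-1.61) in the ENL KO. In HEL CD9 rose (1.30) and CD48 fell (-0.94). Between the knockouts 14 of the 20 stood higher in the DOT1L KO and 5 stood lower, with PROCR at 3.57 and IL1RAP at -1.78.

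Of 12 paralogues of the members tested in K562, 5 rose and 4 fell in the DOT1L KO (median -0.13) and 1 rose and 6 fell in the ENL KO (median -0.91), and between the knockouts 7 stood higher in the DOT1L KO and 3 stood lower. These counts stand beside shares over all genes of 26.9% higher and 24.2% lower after DOT1L loss and 18.8% higher and 22.2% lower after ENL loss. SCARB1 and SCARB2, of the CD36 family, fell in the DOT1L KO (-1.01) and the ENL KO (-1.69) respectively, with SCARB2 at 1.24 between the knockouts. MAG, a relative of CD33, was called higher in the ENL KO (0.42, adjusted p = 0.0492), a call lost under each other scaling (adjusted p = 0.0504 to 0.0730), with the DESeq2 test (0.0810), and without the first control (0.261), the second control (0.0828), the first ENL KO library (0.0620) or the second (0.158), and stood at -0.60 between the knockouts. In HEL 2 of 14 rose and 6 fell (median -0.22): PODXL2, of the CD34 family, rose (1.14), and SIGLEC6, of the CD33 family, fell (-1.64). Of the ligands and partners, 2 of 4 rose and 0 fell in the DOT1L KO, 0 rose and 1 fell in the ENL KO, 3 of 4 were higher and 0 lower between the knockouts, and 1 of 5 rose and 2 fell in HEL. THBS1 (thrombospondin 1, a ligand of CD36) rose in the DOT1L KO from 0.423 ± 0.204 to 16.2 ± 1.64 CPM (5.25), stood at 5.07 between the knockouts and fell in HEL (-1.16), where PECAM1, the CD31 partner of CD38, rose (0.85).

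**Figure D5:**
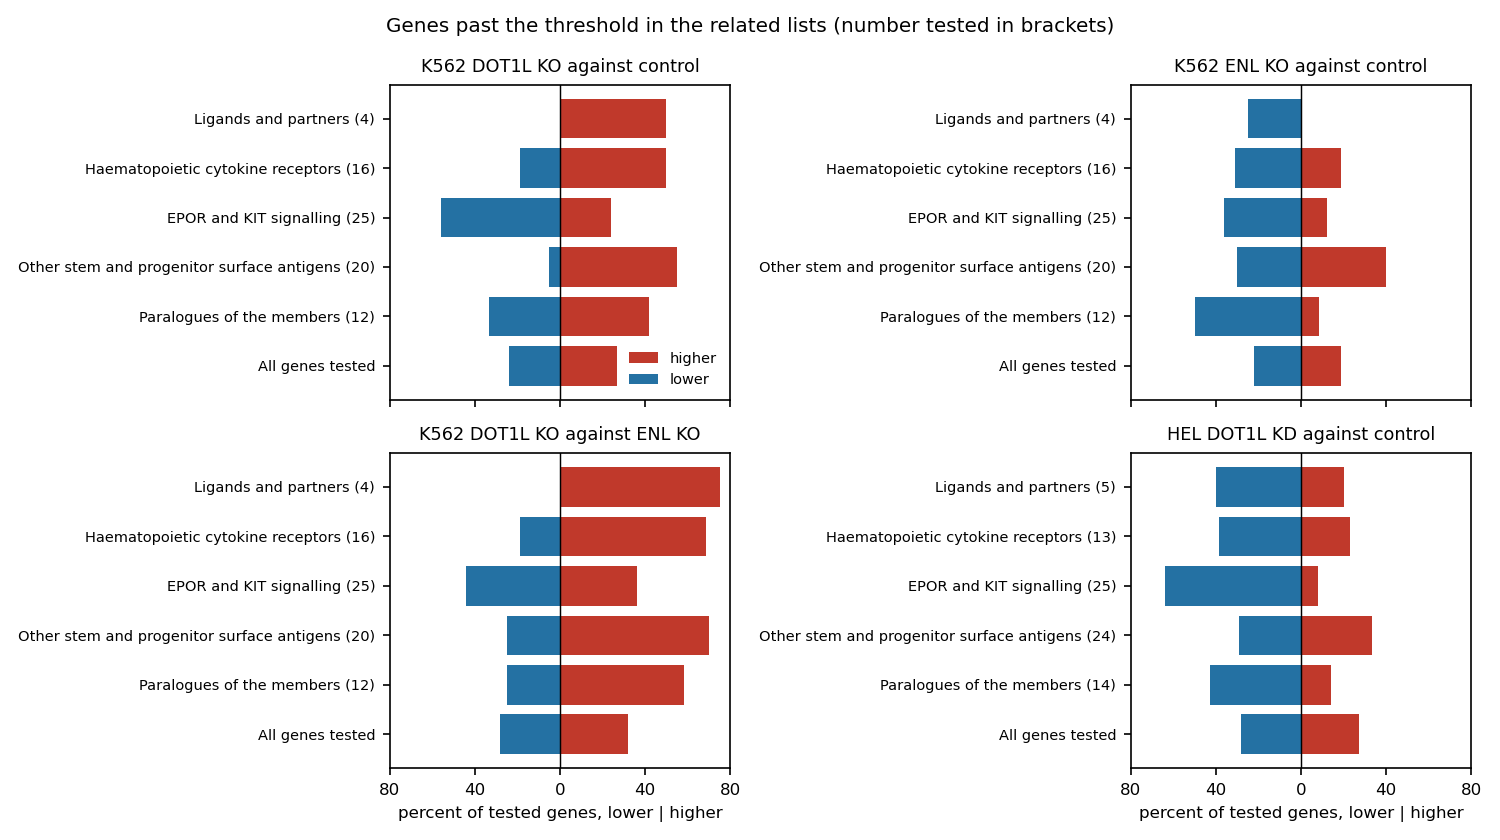
Share of tested genes called higher (right, red) or lower (left, blue) in 5 related lists and over all genes, in percent, for the 4 comparisons, with the number tested in brackets. In the DOT1L KO 14 of 25 signalling genes fell and 11 of 20 other surface antigens rose, beside 24.2% and 26.9% of all genes.

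For each member with a mean of at least 5 CPM in K562, the gene with the most similar profile was sought among 10240 genes over the 8 K562 libraries, which share groups and depth. Pearson's r of log2(CPM + 0.5) was highest with ARID5B for CD33 (0.999), C3 for KIT (0.998), LAMB1 for CD24 (0.999) and CRTC1 for EPOR (0.989). In HEL, these 4 genes and their members had the following values. ARID5B fell there (log2 -1.84) where CD33 rose, C3 was called higher (0.91; adjusted p = 0.0607 without the second KD library) where KIT fell, and LAMB1 (-0.10) and CRTC1 (-0.06) stood beside CD24 at 0.57 and EPOR at 0.19.

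The members lie on 6 chromosomes by the tables' GRCh38 positions, and CD38 and PROM1 are 115 kb apart on chromosome 4. No exon of another listed gene lay inside the span of any member. Neighbours were examined by a rule chosen after the data were seen. Within 500 kb of KIT (chr4:54657928-54740715), 4 genes were listed and 0 passed the filter in K562, so KIT changed there without a measured neighbour. Around CD33 (chr19:51225079-51240019) 25 genes were tested, of which 11 rose and 5 fell in the DOT1L KO and 6 rose and 3 fell in the ENL KO, beside 26.9% higher and 24.2% lower, and 18.8% and 22.2%, over all genes. The nearest tested gene on its lower side, SIGLEC17P, 51.6 kb away and itself a relative of CD33, had 3 and 5 control counts, 65, 113 and 72 counts after DOT1L knockout and 0 in each ENL KO library. SIGLEC17P rose in the DOT1L KO (log2 4.14 ± 0.358 SE, adjusted p = 1.87e-06), and the reads of such related genes may be shared. RGL3, 9.71 kb from EPOR (chr19:11377205-11384342), fell in both knockouts (-1.55 and -3.62) where EPOR rose. SWSAP1, 0.254 kb from EPOR on its other side, passed edgeR's quasi-likelihood test in neither knockout. The log2 changes of SWSAP1 were 0.13 after DOT1L loss (adjusted p = 0.656) and 0.26 after ENL loss (adjusted p = 0.385). In HEL, SEMA3C, 63.3 kb from CD36 (chr7:80602188-80679277), fell by 2.56 on the log2 scale beside a CD36 change of -0.55. GNAI1, 383 kb from CD36 on its other side, did not pass the same test in HEL (log2 -0.09, adjusted p = 0.161).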

How the data were processed

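Per the labels' protocols, polyadenylated RNA was made into dUTP strand-marked libraries. Per the file headers, the authors deposited raw counts per gene, of fragments in K562 and of reads in HEL, with exon positions and exonic lengths. The deposited counts were not scaled. Per the submitters' processing notes, the tools were fastp 0.13.1, Bowtie2 2.3.4.1, HISAT2 2.1.0, deepTools and featureCounts 1.6.1, with no role given. Whether strand was used in counting is not given in the sources used here. Table positions overlapped RefSeq GRCh38.p14 for 9 of 9 members.

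Genes were kept with filterByExpr (minimum count 10, minimum total 15), scaled with TMM and tested with edgeR 4.0.16 (quasi-likelihood test, R 4.3.3), with all 8 distinct K562 libraries in 1 fit in place of the 9 planned and the 4 HEL libraries in another. Adjustment followed Benjamini and Hochberg over the genes of each comparison, with a threshold of 0.05. Each SE of a log2 fold change was derived as its absolute value divided by the square root of the quasi-likelihood F statistic. The interaction was fitted over 9 libraries. TPM was computed from the counts and exonic lengths. The fits were tested on simulated counts. Genes named from each list are the largest increase and decrease past the threshold, with a mean of at least 5 CPM and non-overlapping groups, besides the members, the targeted genes, the ligands and the gene most similar to each member. The members and lists were chosen with earlier results of these data known. Alternatives covered scaling (DESeq2 1.42.0 size factors, library size, upper quartile), the DESeq2 test, filters, a fold threshold, a replicate block, the samples in the fit, the identical control column and each library left out.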

Additional observations from a re-analysis of the deposited data

Results flagged for a closer look

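The response to DOT1L loss differed between K562 and HEL for 4 of the 6 members tested, by the interaction test of the joint fit (HEL response minus K562 response, log2 scale). Over all genes 38.9% of 15367 differed, and the errors of that fit may be too small. KIT had the widest gap, at -2.74, and was the only one of these 4 whose transcript level was called in opposite directions. CD24 differed by -1.98, CD33 by -0.68 and EPOR by -0.59. Line, method of depletion and counting unit go together in that comparison and cannot be told apart. Groups held 2 or 3 libraries, too few to look for a library that stood apart within a group.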

How the results depend on the processing

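Of 278 recomputed member changes, 272 kept their direction and their side of the threshold. The other 6 were EPOR in HEL, which passed with library-size scaling, upper-quartile scaling, a minimum count of 50, the replicate block and without the first control or first KD library (0.19 to 0.33). Requiring in addition a log2 change of 1 or more in size left 1 HEL member, KIT, in place of 4. That threshold left 2265, 1573, 2744 and 738 genes in all in the DOT1L KO, ENL KO, direct and HEL comparisons (7305, 5863, 8606 and 6951 before), and the DESeq2 test called 4561 genes in HEL. With a library left out, the difference between lines for CD36 ran from -0.274 to 0.116 and was above 0 for 5 of the libraries. The CD34 difference between lines passed without the second DOT1L KO library (adjusted p = 0.0237). FLT3LG in the DOT1L KO ran from 0.128 to 0.518 with a library left out and passed with the identical control column counted (0.383). FLT3LG in HEL turned to 0.0159 under library-size and 0.0530 under upper-quartile scaling and ran from -0.148 to 0.0970 with a library left out, and in the ENL KO from -0.272 to 0.117. CRTC1 in HEL turned to 0.00886 under upper-quartile scaling and ran from -0.207 to 0.0606 with a library left out. The causes were not tested.

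In K562, same-numbered libraries had r above 0 between control and knockout (0.11 to 0.39, 2 controls) and between the knockouts (0.08 to 0.56). The highest values were those of replicate 1 (0.38, 0.39 and 0.56). Differently numbered K562 libraries reached 0.30, for control 2 with ENL KO 3, but control columns 2 and 3 were identical, so that number is ambiguous. Between the knockouts, DOT1L KO 2 and ENL KO 3 had 0.28. These r compare deviations from group means, which mirror each other in a group of 2 libraries. The HEL check thus holds 1 value, -0.03 for same-numbered libraries. Whether the numbers pair the libraries cannot be told from these values. With the replicate block 4, 5, 5 and 5 members were called in the 4 comparisons (4, 5, 5 and 4 without), EPOR in HEL at an adjusted p of 0.0453. Over all genes that block raised the calls from 7305 to 8340 in the DOT1L KO and from 5863 to 7021 in the ENL KO. The calls over all HEL genes with the block are not given here, so the EPOR call is not read as particular to it. Depth limits what can be said of PROM1, FLT3 and CD38 in both lines and of CD34 and CD36 in K562.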
